A study of Mus musculus with 4 samples.

Results

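The genes described here are 10 core genes of the circadian clock: Arntl, Clock, Per1, Per2, Cry1, Cry2, Nr1d1, Nr1d2, Bhlhe40 and Bhlhe41. They were chosen by symbol, and all 10 have an entry among the 23275 gene entries of the deposited expression table. All 10 were among the 12683 entries that the authors tested. Polyadenylated RNA was measured in B220+CD43+ cells, the surface phenotype of early B-lineage cells, sorted from the bone marrow of C57BL/6 mice at 8 weeks of age. The wild-type group was Hdac3+/+ Mb1cre+/- and the Hdac3-deleted group was Hdac3F/- Mb1cre+/-, with 1 conditional and 1 null allele, so the recombinase was present in both groups. Mb1-cre is driven by the promoter of the B-cell receptor gene Cd79a, so cells of other lineages in the sort keep the conditional allele beside the null one. Each genotype had 2 libraries, and each library pooled cells of 2 mice. The table gives 1 level per gene and genotype in FPKM, a count of sequenced fragments scaled for transcript length and library size. The table has no column per library, so the spread within a genotype cannot be shown, and whether the libraries of the genotypes overlap for a gene is not known here. The study as a whole asked what loss of Hdac3 does to B-cell development, and the comparison here is of the clock genes between these genotypes.

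In the mammalian clock, the BMAL1 protein encoded by Arntl pairs with CLOCK and binds E-box elements, which activates transcription of the Per, Cry, Nr1d and Bhlhe genes. PER and CRY proteins then inhibit the BMAL1-CLOCK pair, and BHLHE40 and BHLHE41, also called DEC1 and DEC2, repress at the same E-boxes. In a further loop, the nuclear receptors NR1D1 and NR1D2, known as REV-ERB alpha and REV-ERB beta, repress Arntl through ROR elements in its promoter. They do so by recruiting the corepressor NCoR, which carries histone deacetylase 3, the enzyme deleted here. Most of these transcripts oscillate over the day, and the labels give no time of day for either genotype.

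Short promoter stretches with these elements are shown because the loops run through them and because Arntl, a target of the ROR element, and Bhlhe41, a target of the E-box, are the members that changed. RefSeq promoter windows of the GRCm38.p6 build, the same coordinates as mm10, covered 8 of the 10 genes with 12 windows of 300 bases, 250 before and 50 after a start site. Bhlhe40 and Per2 had no window. Each stretch of 30 bases reads 5′ to 3′ on the strand of its gene, and capitals mark the matched letters.
Arntl, plus strand, chr7:113207494-113207523: tggtcggaaagTAGGTTAgtggtgcgacat
Arntl, plus strand, chr7:113207530-113207559: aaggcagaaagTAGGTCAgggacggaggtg
Bhlhe41, minus strand, chr6:145865556-145865585: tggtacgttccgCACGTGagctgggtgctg
Cry1, minus strand, chr10:85185097-85185126: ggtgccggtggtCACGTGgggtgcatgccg
Per1, plus strand, chr11:69098771-69098800: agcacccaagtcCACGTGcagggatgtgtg
Nr1d1, minus strand, chr11:98775388-98775417: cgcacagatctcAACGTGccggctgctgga

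The ROR element TAGGTCA, searched on both strands, was found in the windows of 1 member, Arntl, and in 2.61% of all 32851 promoter windows. The related letters TAGGTTA, added after the windows had been read, were found in Arntl alone among the members and in 1.44% of all windows. In Arntl the matches begin 36 bases apart, downstream of the gene's first start site at position 113207465. The E-box CACGTG was found in Bhlhe41, Cry1 and Per1 and in 7.15% of all windows. In Bhlhe41 it begins 153 bases before the start site of the RefSeq window, in Cry1 60 bases and in Per1 166 bases before it. For Per1 that start site, 69098949, and the match lie inside the gene as annotated by GENCODE, which begins at 69095217. The E-box variant CACGTT, which appears as AACGTG when it lies on the other strand, was found in Cry1, Cry2 and Nr1d1 and in 4.68% of all windows. The D-box TTATGTAA and the cAMP response element TGACGTCA matched 0 member windows. All motifs were searched on both strands, none of them contains another, and a match is not a measured binding site.

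Loss of Hdac3 was accompanied by a higher level of Arntl and a lower level of Bhlhe41, and the other 8 core genes did not pass the test. Arntl rose 2.10-fold, from 74.7 FPKM without the deletion to 157 FPKM with it. Bhlhe41 fell 3.84-fold, from 1.23 to 0.321 FPKM. At q under 0.05 in the authors' deposited table, that is 1 higher gene and 1 lower gene of 10, against 2.81% higher, 4.14% lower and 6.95% called in either direction over all tested entries. Counts of 1 are too small to set the clock genes apart from that background. As a median, the 10 genes had a log2 fold change of 0.04, and that of the 12643 tested entries with a level in both genotypes was 0.03. The 6 genes with positive values and the 4 with negative ones show no common direction.

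**Figure D1:**
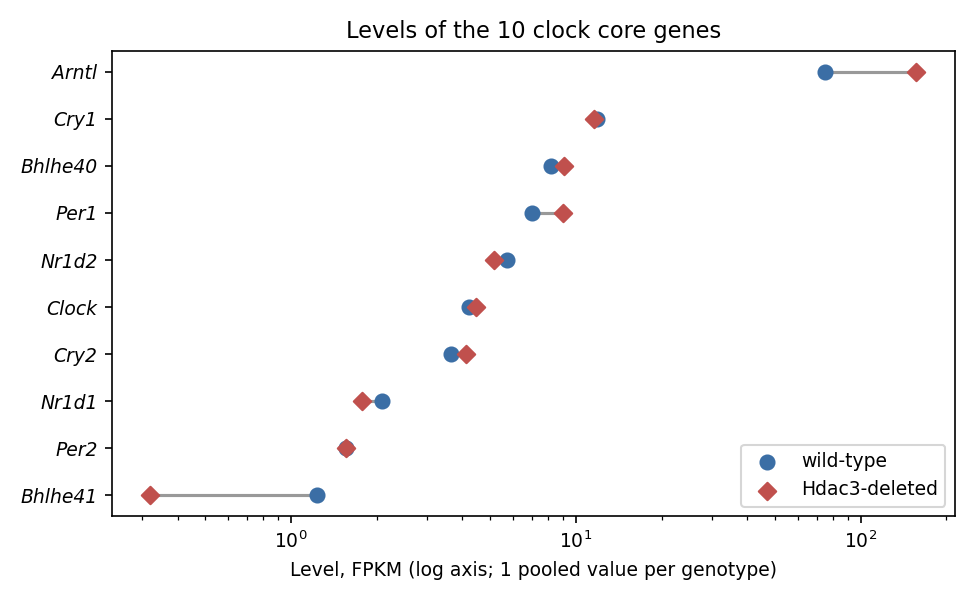
Level of each clock core gene in FPKM (horizontal log axis), 1 pooled value per genotype, wild-type as circles and Hdac3-deleted as diamonds, ordered by the wild-type level. Arntl moves from 74.7 to 157 FPKM and Bhlhe41 from 1.23 to 0.321 FPKM, while the order of the 10 genes is the same in both genotypes.

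The 10 genes kept the same order of levels in both genotypes, as the plot of levels shows. Arntl stood far above the rest, followed by Cry1, Bhlhe40, Per1, Nr1d2, Clock, Cry2, Nr1d1, Per2 and Bhlhe41. The 9 genes below Arntl lay between 1.23 and 11.8 FPKM in wild-type cells. Arntl alone made up 62.1% of the summed wild-type FPKM of the 10 genes and 76.9% of the sum after deletion. The sum of the other 9 was 45.5 and 47.0 FPKM. Without a spread per genotype, neighbours in this order cannot be separated.

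Arntl lies on chromosome 7 from 113207465 to 113314126 of the mm10 build, on the plus strand, with 22 exonic blocks in the GENCODE annotation. Its wild-type level exceeded that of 89.7% of tested entries, and its level after deletion exceeded 95.9%. The authors' deposited table gives q = 0.0016 for its increase, the smallest q-value in the table, shared by 396 entries. The test statistic in that table implies a standard error of 0.30 for the log2 fold change of 1.07, and a 95% interval of 1.41-fold to 3.14-fold. Of 356 higher entries, 112 had a larger fold change than Arntl. Among the 44 higher entries whose wild-type level was at least 50 FPKM, 2 did, namely the recombinase gene Rag1 and Cd209d, a lectin gene. The floor of 50 FPKM was not part of the plan, and both genes were singled out by this count after the values were known. An antisense transcript, Gm45355, overlaps 33 bases of Arntl's exons, 0.439% of them.

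Clock, which encodes the partner of BMAL1, had 4.21 FPKM in wild-type cells and 4.46 FPKM after deletion. Its gene spans 76209868 to 76304792 of chromosome 5. Arntl was thus 17.7 times as abundant per length as Clock in wild-type cells and 35.2 times after deletion. The authors' deposited table gives q = 0.958 for Clock. The log2 fold change of Arntl exceeded that of Clock by 0.99 with a 95% interval from -0.11 to 2.09, taking the implied errors as independent, so the transcripts of these partners were not shown to respond differently. Clock's interval alone, from 0.555-fold to 2.02-fold, is wide and includes a doubling. The table gives Clock the locus of a group of entries that includes Tmem165, itself at 32.6 and 32.2 FPKM, so its value is less certain.

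**Figure D2:**
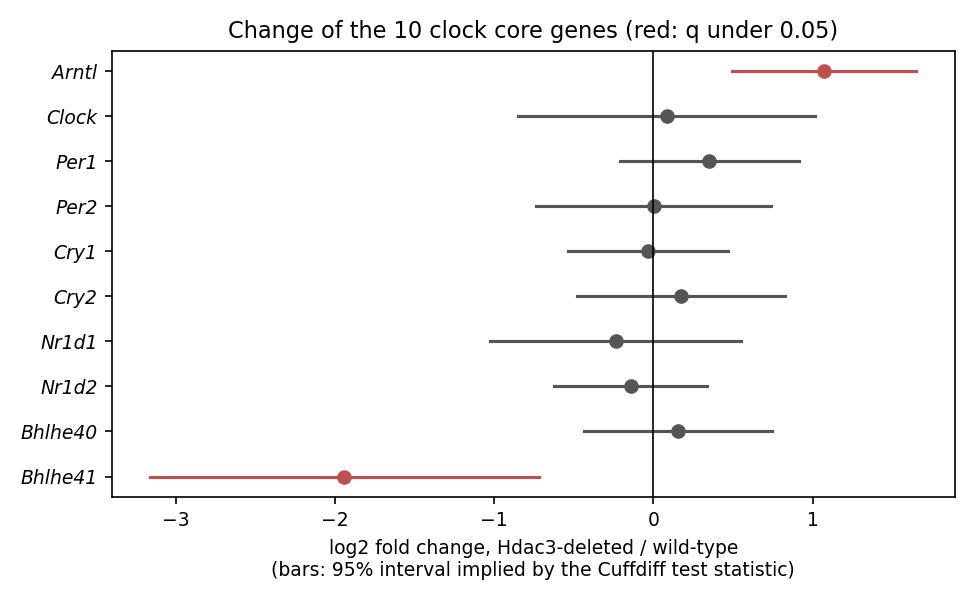
log2 fold change of each clock core gene, Hdac3-deleted over wild-type (horizontal axis), with 95% intervals implied by the authors' test statistic, ordered by role from the activators to the E-box repressors. The intervals of Arntl and Bhlhe41, in red, lie apart from 0, and those of the other 8 genes include 0.

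Among the repressors of the negative limb, Per1 was the member nearest to a call. Per1, on chromosome 11 from 69095217 to 69109960, had 7.04 FPKM in wild-type cells and 8.98 FPKM after deletion. Its log2 fold change of 0.35 had an interval from -0.21 to 0.91, and the authors' deposited table gives q = 0.382. Per2, on chromosome 1 from 91415982 to 91459324, was 1.56 FPKM in both genotypes, with an interval from -0.74 to 0.74. Per1 was the more abundant of these paralogues, 4.53 times Per2 in wild-type cells and 5.77 times after deletion.

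Neither cryptochrome passed the test. Cry1, on chromosome 10 from 85131700 to 85185064, was 11.8 and 11.6 FPKM and ranked next to Arntl. Its interval, from 0.690-fold to 1.39-fold, excludes a change as large as that of Arntl. Cry2, on chromosome 2 from 92403646 to 92434043, was 3.65 and 4.12 FPKM, with an interval from 0.718-fold to 1.77-fold. The summed level of this pair was 15.5 FPKM without and 15.7 FPKM with the deletion. The authors' deposited table gives q = 0.974 for Cry1 and q = 0.804 for Cry2. Exons of Cry2 overlap 295 bases of the opposite-strand transcript D930015M05Rik, which was 0.186 and 0.457 FPKM.

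Nr1d1 and Nr1d2, whose proteins bring NCoR and HDAC3 to the ROR elements of Arntl, did not pass the test. Nr1d1, on chromosome 11 from 98767932 to 98775333, had 2.09 FPKM in wild-type cells and 1.77 FPKM after deletion. Nr1d2, on chromosome 14 from 18204054 to 18239127, was 5.71 and 5.18 FPKM. Both values were lower after deletion, at -0.24 and -0.14 on the log2 scale, with intervals from -1.03 to 0.55 and from -0.62 to 0.34. The authors' deposited table gives q = 0.784 and q = 0.850. Nr1d2 was the more abundant per length, 2.73 times Nr1d1 in wild-type and 2.92 times after deletion. Their sum was 7.80 and 6.95 FPKM. The ratio of Arntl to Nr1d1 was 35.7 in wild-type cells and 88.5 after deletion.

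The value of Nr1d1 carries a further limit, since 263 bases of its exons, 8.55% of them, overlap exons of Thra on the opposite strand. Thra encodes thyroid hormone receptor alpha, and it rose 1.60-fold, from 8.34 to 13.4 FPKM, with q = 0.026 in the authors' deposited table. The deposited locus of Thra ends 2.82 kb before that of Nr1d1, so these levels were measured without the overlapping exons. No source used here says whether the libraries were stranded, so fragments of the overlapping part cannot be assigned to 1 gene, and the part of Thra in the Nr1d1 value was not tested.

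The E-box repressors Bhlhe40 and Bhlhe41 are close paralogues, and 1 of them, Bhlhe41, passed the test. Bhlhe40, on chromosome 6 from 108660629 to 108666925, had 8.15 FPKM in wild-type cells and 9.08 FPKM after deletion, with q = 0.819 in the authors' deposited table. Its deposited locus starts at 108577039, before the GENCODE gene, and is shared with the entry 0610040F04Rik, at 0.203 and 0.0688 FPKM. The value of Bhlhe40 is thus less certain. Bhlhe41, on chromosome 6 from 145858243 to 145865558, had 26.1% of its wild-type level left, with an interval from 0.112 to 0.607 of that level and q = 0.0324 in the authors' deposited table. The log2 fold change of Bhlhe41 was below that of Bhlhe40 by 2.10, with a 95% interval of the difference from -3.45 to -0.74. Of 5 pairs compared in this way, this was the 1 whose interval excluded 0. Bhlhe40 was 6.62 times Bhlhe41 in wild-type cells and 28.3 times after deletion. Bhlhe41 was a small part of the pair, whose summed level was 9.38 FPKM without and 9.40 FPKM with the deletion.

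The call of Bhlhe41 rests on low levels. Its wild-type level exceeded that of 12.2% of tested entries, and its level after deletion exceeded 1.70%. Of 525 lower entries, 89 had a more negative fold change. Of the 463 tested entries between 1 and 1.5 FPKM in wild-type cells, 45 were called, or 9.72%, while 6.82% of the 1085 entries between 50 and 100 FPKM, the range of Arntl, were called. On the log2 scale the change of -1.94 became -0.76 with 1 FPKM added to both levels. The table's locus for Bhlhe41 starts at 145862737, inside the GENCODE gene, and a transcript on the other strand, Gm43909, overlaps 19.0% of the annotated exonic bases.

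**Figure D3:**
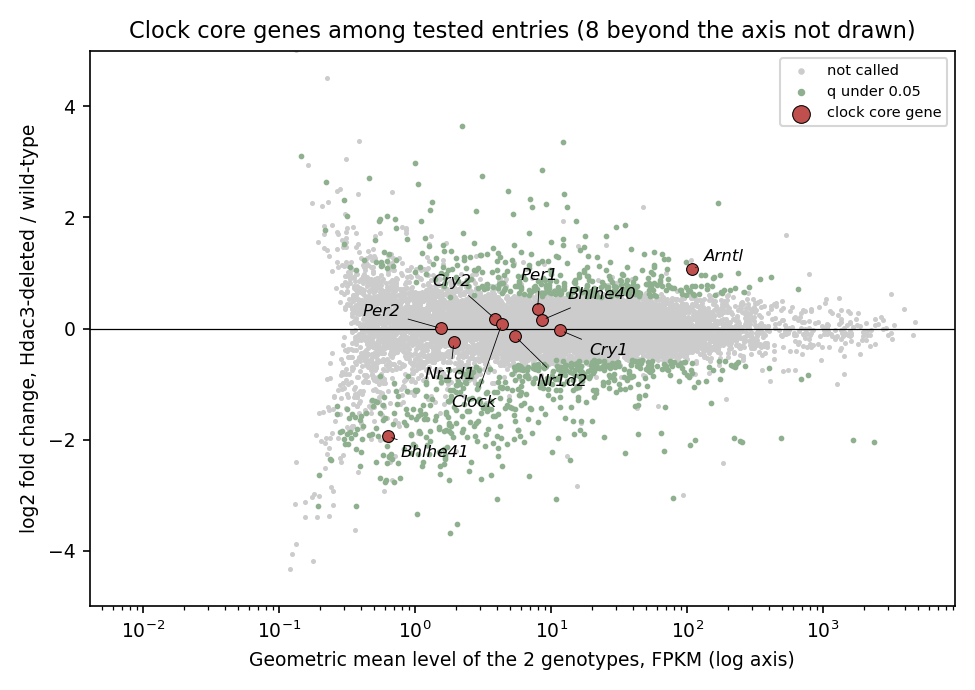
log2 fold change, Hdac3-deleted over wild-type (vertical axis), against the geometric mean level of the genotypes in FPKM (horizontal log axis) for 12635 tested entries, with 8 entries beyond 5 log2 units not drawn. Arntl lies among the higher calls at high levels, Bhlhe41 among the lower calls at low levels, and the other 8 clock genes within the mass of uncalled entries.

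Of the genes nearest to the clock genes, 1 passed the test, against 6.95% called in either direction over all tested entries. A count of 1 is too small to set these genes apart from that background. Distances ran up to 1096 kb, for Usp47 before Arntl. Of the 20 nearest tested entries with a mean of at least 1 FPKM, 1 on each side of each gene, 1 was higher and 0 were lower in the authors' Cuffdiff test at q under 0.05, and the 1 was Thra. At an unadjusted p under 0.05 in the authors' deposited table, beside Thra, Cntrob next to Per1 was lower, at 14.1 and 10.4 FPKM, and Btbd11 next to Cry1 was higher, at 1.10 and 1.65 FPKM. Btbd10, which starts 1.52 kb after Arntl and encodes a BTB domain protein, was 22.2 and 18.7 FPKM, with q = 0.596 in the authors' deposited table. Beside Bhlhe41, Rassf8 was 1.46 and 1.42 FPKM. Sspn, 68.8 kb from Bhlhe41 and chosen after its value was seen, encodes sarcospan and fell 3.12-fold, from 0.692 to 0.222 FPKM, with q = 0.0053 in the authors' deposited table.

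The rest of the clock pathway was examined through a list of 53 genes beside the 10, of which 46 were tested. Hdac3, the deleted gene, belongs to the coregulators of that pathway and was left out of these counts. At q under 0.05 in the authors' deposited table, 2 were higher and 3 were lower, against the 2.81% and 4.14% of all tested entries given above. The median log2 fold change was 0.11, and that of tested entries was 0.03. None of the 5 changed 2-fold.

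Paralogues of the activators were scarce. Npas2, which can replace CLOCK, was 0.123 and 0.185 FPKM, and Arntl2, a paralogue of Arntl, was 0.0719 and 0.140 FPKM. Neither was tested by the authors. Of the ROR receptors, which activate Arntl through the elements that the REV-ERB proteins repress, Rora was 0.408 and 0.589 FPKM with q = 0.752 in the authors' deposited table. Rorb, at 0.0916 and 0.0839 FPKM, was not tested.

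In the repressor group Timeless and Tipin fell and 3 others did not pass. These 5 genes are too few to set against the 4.14% called lower over all tested entries. Tipin fell 1.72-fold, from 125 to 72.6 FPKM, with q = 0.0016 in the authors' deposited table. Timeless fell 1.59-fold, from 21.0 to 13.2 FPKM, with q = 0.0122 there. Their proteins form a complex that also protects replication forks, and that is their established role in mammalian cells. Among 8 replication fork genes picked after these values were seen (Mcm2 to Mcm7, Pcna and Clspn), all 8 had negative log2 fold changes, from -0.61 to -0.09, and Mcm5 was the 1 that passed. That count of 1 does not set the replication fork genes apart from the 4.14%. The share of negative values over all tested entries is not given here. The part of replication in the values of Timeless and Tipin was not tested. Ciart, a repressor of BMAL1-CLOCK listed in the table under the older symbol Gm129, was 1.37 and 1.74 FPKM, and Ddb1, a subunit of ubiquitin ligases, was 94.7 and 94.2 FPKM.

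Output factors that bind D-boxes did not pass the test in any of 3 tested genes, too few to set against the 6.95% called over all tested entries. Tef was 9.16 and 10.7 FPKM, and Nfil3, a repressor at D-boxes, was 3.47 and 4.10 FPKM. Dbp, singled out after its values were seen because it is a direct E-box target, was 3.79 and 3.14 FPKM. The authors' deposited table gives q = 0.657, 0.739 and 0.912 for them.

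Of 10 tested kinases and phosphatases that act on clock proteins, 0 were called in the authors' Cuffdiff test, and 0 had an unadjusted p under 0.05. With 6.95% called over all tested entries, 0 of 10 does not set these genes apart. Their log2 fold changes lay between -0.17 and 0.29. Ppp2ca, the catalytic subunit of protein phosphatase 2A, was 194 and 206 FPKM, and Csnk1a1, a casein kinase, was 157 and 186 FPKM. Among 7 tested ubiquitin ligase and deubiquitinase genes, Btrc fell 1.79-fold, from 20.0 to 11.2 FPKM, with q = 0.0016 in the authors' deposited table. Btrc encodes beta-TrCP, which marks PER proteins for degradation and has many other substrates. Its paralogue Fbxw11 was 25.8 and 26.6 FPKM, and Huwe1 was 39.3 and 44.7 FPKM.

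Of 14 tested coregulator genes, with Hdac3 left out, 12 had positive log2 fold changes. Their median was 0.27, against 0.03 for all tested entries with a level in both genotypes. Tbl1x, a subunit of the NCoR complex that holds HDAC3, was the 1 that passed. It rose 1.54-fold, from 30.4 to 46.7 FPKM, with q = 0.0266 in the authors' deposited table. With 2.81% called higher over all tested entries, 1 of 14 does not set the coregulators apart. The share of positive values over all tested entries is not given here. The RNA-binding proteins Nono and Sfpq, partners of PER, were the most abundant, at 265 and 301 FPKM and at 239 and 290 FPKM. Among 6 genes that cycle in many tissues, Tsc22d3, also induced by glucocorticoids, rose 1.68-fold from 75.3 to 127 FPKM, with q = 0.0029 in the authors' deposited table. Set against the same 2.81%, 1 of 6 is too small a count to set these genes apart. Wee1, a mitotic inhibitor kinase, was 28.0 and 23.0 FPKM, and Nampt, an enzyme of NAD synthesis, was 27.1 and 24.4 FPKM.

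**Figure D4:**
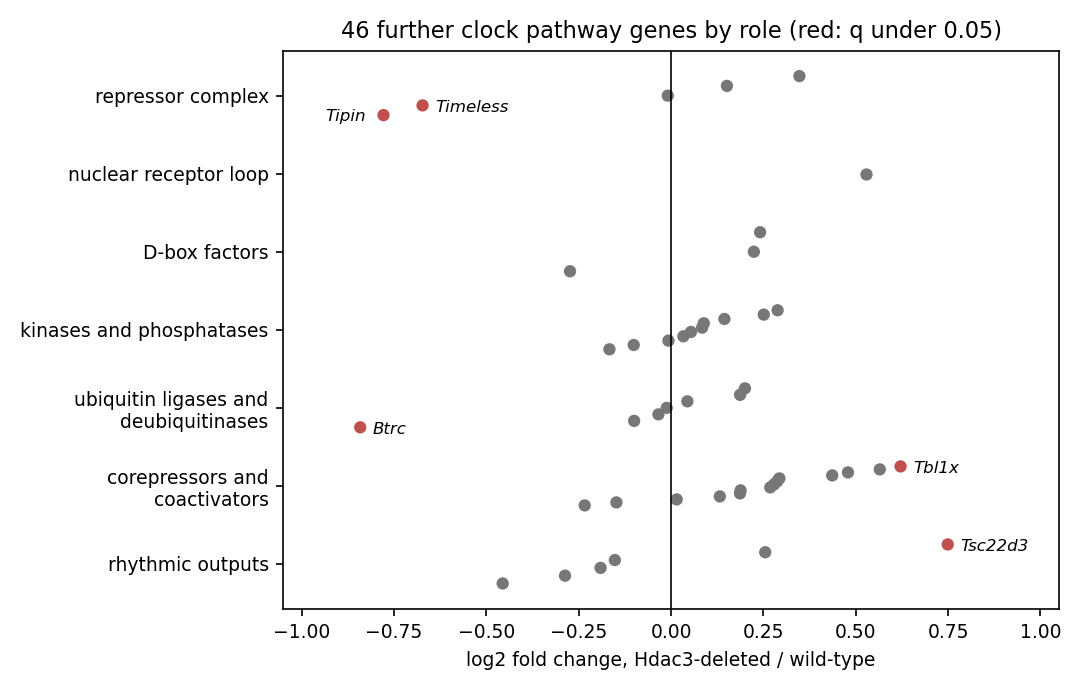
log2 fold change, Hdac3-deleted over wild-type (horizontal axis), of the 46 tested further clock pathway genes, 1 point per gene, grouped by role, with vertical offsets within a group only to separate points. The 5 called genes, in red, are Tsc22d3 and Tbl1x to the right and Timeless, Tipin and Btrc to the left.

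The targeted gene, Hdac3, went from 46.8 FPKM to 47.1% of that after deletion. This value can include exons outside the deleted part and sorted cells of other lineages, and the part of each was not tested. The deleted group also carried a null allele, in cells of other lineages too. The value therefore does not separate that allele from the conditional deletion. How complete the deletion was in B-lineage cells was not measured here. In bulk samples such as these, fewer cells of a type and less RNA per cell cannot be told apart. All 10 markers of pro-B and pre-B cells were present, from 77.4 to 509 FPKM in wild-type cells, and 5 of 10 rose in the authors' deposited table, with a sum of 2185 FPKM in wild-type and 3546 FPKM after deletion. Plasmacytoid dendritic cell markers were as abundant, with a sum of 2419 and 3159 FPKM, and 0 of 10 passed in the authors' Cuffdiff test, with 4 at an unadjusted p under 0.05. Neutrophil markers fell in 8 of 9 tested, with a sum of 10807 and 2669 FPKM. Basophil and mast cell markers were called lower in 3 of 7, with a sum of 22.8 and 4.84 FPKM. All 7 had negative log2 fold changes and an unadjusted p under 0.05 in the authors' Cuffdiff test. Immediate early and stress genes fell in 8 of 12, mature B-cell markers in 3 of 5 and plasma cell markers in 3 of 5. Over all tested entries, 2.81% were called higher and 4.14% lower. T, NK and innate lymphoid markers, at 466 and 487 FPKM in sum, and erythroid markers, at 8.48 and 5.97 FPKM, had 0 called genes in that test, with 0 and 2 at an unadjusted p under 0.05.

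Beside Arntl, then, the pro-B and pre-B markers had a median log2 fold change of 0.55 and the plasmacytoid dendritic cell markers one of 0.44. Arntl's own value was 1.07. Within the pro-B and pre-B list the values ran from 0.32 to 2.25, and within the dendritic cell list from 0.21 to 0.59. Beside Bhlhe41, at -1.94, the neutrophil markers had a median of -2.00 with single levels of 7.50 to 4815 FPKM in wild-type and 3.24 to 1172 FPKM after deletion. The basophil and mast cell markers had a median of -2.26, at 0.490 to 9.05 FPKM in wild-type and 0.102 to 1.85 FPKM after deletion. Mature B-cell markers had a median of -1.32, and no marker of these lists was at 0 in either genotype. The part of these cell types in the values of Arntl and Bhlhe41 was not tested.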

How the data were processed

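The table was made by the authors with Trimmomatic 0.32, TopHat2 2.0.11 and Cuffdiff 2.1.1 on mm10, per the submitters' processing notes. No source used here gives their options, annotation or scaling. RNA came from a Trizol extraction, was enriched for polyA and made into libraries with an Illumina TruSeq kit, per the labels' protocols. The deposited FPKM values are 1 per gene and genotype, combining 2 libraries. The deposited test statistic, a score, and the deposited p-value and q-value come from Cuffdiff, per the file headers. The q-value matched a Benjamini-Hochberg adjustment over the 12683 tested entries. Depth per library is unknown, and each p-value depends on how Cuffdiff modelled 2 libraries a genotype.

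Fold changes are ratios of the deposited FPKM values. The implied standard error is the log2 fold change divided by the test statistic, with a normal 95% interval. Cuffdiff's own p-values can be smaller than a normal approximation gives. The arithmetic of the intervals and of the adjustment was tested on simulated data drawn with these same errors, which does not show that the implied errors are right. The clock genes, the lists and the rule for named genes (all 10 genes, called genes of the further list, the 2 most abundant uncalled genes of each role, and neighbours) were chosen with earlier results of these data known. Markers comprised 9 lists, and 2 of their genes had no entry used here. Locus positions count from 1, exons come from GENCODE M21 and promoters from RefSeq. Ciart, Kmt2a and Noct were matched by older symbols. Alternatives varied the q threshold, fold and level minimum, shared loci, the p-value, pseudocounts and centring. Protein sequences were not used here. The values of 1 gene of the further list are not reported here. The software was matplotlib 3.10.9, scipy 1.17.1, numpy 2.4.6, statsmodels 0.14.6 and pandas 2.3.3 under Python 3.11.15.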

Additional observations from a re-analysis of the deposited data

How the results depend on the processing

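Arntl was the 1 higher core gene under each of the 6 alternatives for the count (q thresholds of 0.01 and 0.1, a 2-fold minimum, at least 1 FPKM in both genotypes, no shared loci, and a normal p from the test statistic, where its adjusted p was 0.0115). The lower core genes numbered 0 at q under 0.01 and 0 with at least 1 FPKM in both genotypes, since Bhlhe41 does not reach that level. In the authors' Cuffdiff test Bhlhe41 had an unadjusted p of 0.00195, and its adjusted p from the normal approximation was 0.0491. Its log2 fold change was -0.76 after 1 FPKM was added to both levels. Under the pseudocount of 0.1 FPKM and both centrings, no core gene moved by as much as its implied standard error, and the uncalled Per2 and Cry1 changed sign, to -0.02 and 0.02. For the further clock genes, the higher calls were 1 at q under 0.01, 0 with a 2-fold minimum and 0 with the normal p. Lower calls were 0 with the 2-fold minimum and 1 with the normal p, namely Tipin. Leaving out Timeless and Tipin, chosen after seeing the data, left 1 lower gene, Btrc. Over all entries, the 356 higher and 525 lower calls became 189 and 345 at q under 0.01, 130 and 296 with the 2-fold minimum, and 136 and 335 with the normal p. No paired analysis was possible because the table has no column per library, and for the same reason no library could be left out. Low levels such as that of Bhlhe41 limit precision.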
